A study of Mus musculus with 6 samples.

Results

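The RNA of 35 macrophage and myeloid marker genes was followed in quadriceps muscle of wild-type (WT) mice and of HSALR mice. The genes were given as a list of symbols, and all 35 were found by symbol among the 53947 genes of the deposited tables. They were sorted by role into 7 markers of tissue-resident macrophages, 7 markers of inflammatory or injury-associated macrophages, 10 general macrophage and monocyte markers, 4 Fc receptors and adaptors, 3 transcription factors and 4 genes of all leukocytes. The study sequenced ribosomal RNA-depleted total RNA from 3 WT and 3 HSALR samples, all taken from quadriceps at an age of 12 weeks. HSALR mice are transgenic and express the human skeletal actin gene with about 220 CTG repeats, and WT mice served as controls. The transgene is made in skeletal muscle fibres, so that the repeat RNA is a product of the fibres and not of the macrophages between them. The labels used here give no strain, litter or separate animal for a sample, and p-values measure only the spread between these samples. Xist had at most 1 count and the Y-linked gene Ddx3y between 571 and 870 counts in each of the 6 libraries, so sex did not separate the groups.

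Macrophages are phagocytes that live in the connective tissue around muscle fibres and vessels. Resident macrophages of muscle carry scavenger receptors such as CD163 and the mannose receptor, whereas monocytes that enter damaged muscle through the chemokine receptor CCR2 become inflammatory cells first and repair cells later. Signals from the growth factor receptor CSF1R keep macrophages alive, the factor PU.1 (gene Spi1) opens their gene programme, and many of their receptors signal through the adaptors DAP12 (Tyrobp) and the Fc receptor gamma chain (Fcer1g), which carry an activation motif called ITAM. In whole muscle a higher level of such RNAs can come from more cells or from more RNA per cell, and these cannot be told apart here.

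The libraries held between 11468959 and 15023710 counts, at which 3 counts correspond to between 0.199 and 0.285 CPM (counts scaled to the normalised library size). The small abundant RNAs 7SL and 7SK took 14.1% to 15.5% of the counts in WT and 43.9%, 18.8% and 24.0% in HSALR replicates 1, 2 and 3, so HSALR replicate 1 stood apart. Its pairs with HSALR replicates 2 and 3 also differed most, with a chi-square per degree of freedom of 177 and 113 against at most 27.8 for any other pair of the same group. Values below are given in the order of replicates 1, 2 and 3. The number of markers called and their median change are also given without each library in turn.

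Of the 33 marker genes that could be tested, 14 were called higher in HSALR than in WT and 19 were not called. Summed over the 35 genes, marker RNA amounted to 197, 219.9 and 203 CPM in WT and 884, 309 and 419 CPM in HSALR. Each HSALR library lay above the highest WT library, HSALR replicate 2 by the least and HSALR replicate 1 by the most. The other 2 genes did not pass the filter on low counts. All 33 tested genes had a positive log2 fold change (HSALR over WT), with a median of 1.34 against 0.04 over the 13576 genes tested, of which 52.9% were positive. With edgeR's quasi-likelihood test at a Benjamini-Hochberg adjusted p below 0.05 over all genes, 14 of the 33 were called higher, where 4.28% of all genes tested were called higher. None was called lower by edgeR, DESeq2, limma-voom or limma-trend, or at an unadjusted edgeR p below 0.05, where 7.48% of all genes tested were called lower by edgeR and 16% were lower at an unadjusted p below 0.05. At that unadjusted threshold 26 markers were higher, against 15.8% of all genes tested. In 24 of the 33 genes the 3 HSALR values all lay above the 3 WT values, compared with 17.8% of the genes tested. The 4 genes Trem2, Spp1, Aif1 and Spi1 did not reach the cutoff of the filter (0.733 CPM) in all WT libraries and thus could pass only with the help of HSALR. Among the 29 other genes, 13 were called higher, against 4.2% of the 12401 genes that reached the cutoff in WT. In 20 of these 29 the 3 HSALR values all lay above the 3 WT values, where 17.8% of all genes tested did. Their median log2 fold change was 1.33.

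The number of calls depended on single libraries. Without HSALR replicate 1, 16 markers were called (5.94% of all genes tested were called higher), 13 of them among the 14, and Ccr2 was lost. The median log2 fold change was then 0.84, with 32 of the 33 genes positive. The smallest changes were those of Fcer1g (-0.52), Cd53 (0.16), Fcgr2b (0.18), Timd4 (0.21), Irf8 (0.29), Aif1 (0.35), Tyrobp (0.41), Fcgr3 (0.48) and Clec10a (0.51). Without HSALR replicate 2 there were 24 calls (10.6% of all genes). Without HSALR replicate 3, or without WT replicate 1, 2 or 3, a single marker was called in each case, which was Irf5, and 0.361%, 0.3%, 0.35% and 0.343% of all genes were called higher. The median log2 fold change lay between 1.36 and 1.51 in these 4 settings. DESeq2 called 23 markers higher (8.57% of all genes), including all 14, limma-voom 8 (3.35% of all genes) and limma-trend on TPM 3 (0.368% of all genes).

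**Figure D1:**
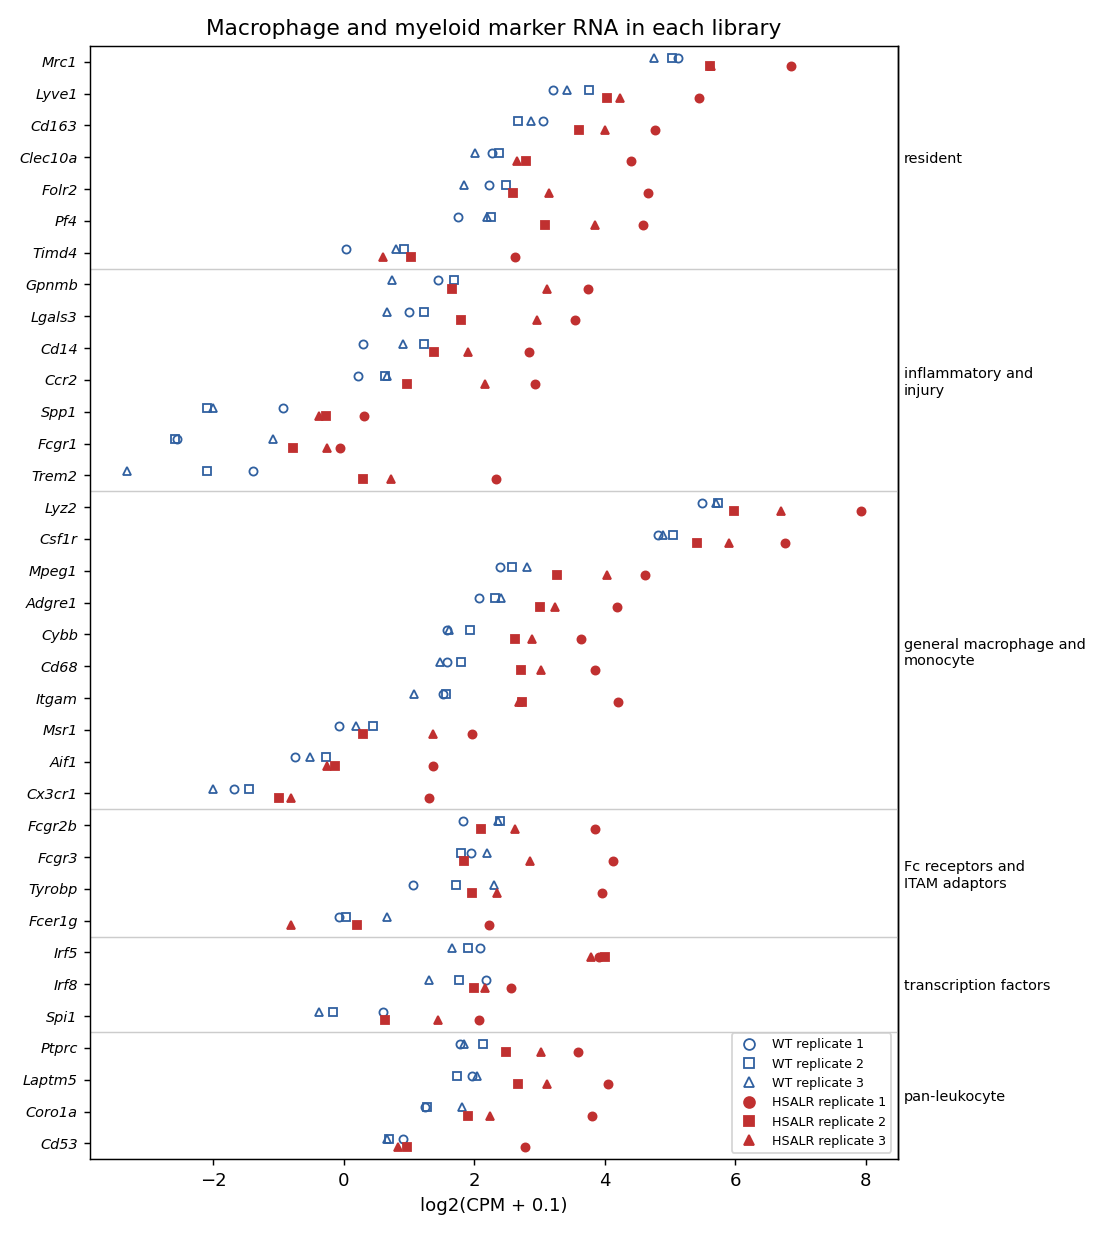
Level of each of the 35 marker genes in each library, as log2(CPM + 0.1) on the horizontal axis, with genes grouped by role on the vertical axis. Open blue symbols are the 3 WT libraries and filled red symbols the 3 HSALR libraries (circle, square and triangle for replicates 1, 2 and 3). HSALR replicate 1 is the highest point for nearly every gene, HSALR replicate 2 often lies next to WT, and the 3 HSALR points of Irf5 lie close together.

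The markers moved together from library to library. HSALR replicate 1 was the highest of the HSALR libraries for 32 of the 33 tested markers, which held for 38.9% of all genes tested, and HSALR replicate 2 was the lowest for 25, against 34% of all genes. Measured as the distance to the mean of the WT libraries on log2(CPM + 0.5), the median over the 33 genes was 1.92, 0.49 and 0.95 for HSALR replicates 1, 2 and 3. Over all genes tested the same median was between 0.01 and 0.02. The genes share their libraries, so this order is one property of the samples and not many separate ones.

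Of the 3 transcription factors 1 was called. Irf5 encodes interferon regulatory factor 5, which acts downstream of Toll-like receptors in macrophages and is known for inflammatory gene activation. It measured 4.17, 3.64 and 3.05 CPM in WT and 15, 16.0 and 13.7 CPM in HSALR (chromosome 6, 29526276 to 29541870, GRCm39; log2 fold change 2.04 ± 0.19, edgeR adjusted p = 0.00212). The 3 HSALR values were close to each other and far above WT. Irf5 was the marker with the lowest p, and it kept the call in all 18 alternative settings, with log2 fold changes between 1.42 and 2.16 and adjusted p-values between 5.63e-14 and 0.0359. It was also the only tested marker for which HSALR replicate 1 was not the highest HSALR library. Relative to the summed CPM of the 10 general markers, Irf5 stood at 4.53%, 3.34% and 2.94% in WT and at 3.35%, 11.1% and 6.37% in HSALR, so that HSALR replicate 1 lay within the WT range of this ratio and the other HSALR libraries above it. The 3' end of Irf5 overlaps that of Tnpo3 on the opposite strand. The libraries were stranded, but whether strand was used in counting was not stated, so a contribution of Tnpo3 reads is uncertain.

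Spi1, which encodes PU.1, measured 1.41, 0.795 and 0.669 CPM in WT and 4.09, 1.45 and 2.62 CPM in HSALR and was not called (log2 fold change 1.49 ± 0.49, edgeR adjusted p = 0.0749). Its 3 HSALR values lay above WT, HSALR replicate 2 only just. DESeq2 called it, and it reached the cutoff of the filter only with the help of HSALR. Irf8, a factor of monocyte and dendritic cell development, had the smallest change of the list, with 4.46, 3.31 and 2.38 CPM in WT and 5.80, 3.87 and 4.36 CPM in HSALR (log2 fold change 0.46 ± 0.30, edgeR adjusted p = 0.317), and its groups overlapped.

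Because PU.1 binds purine-rich sequences in many myeloid promoters, the core letters GAGGAAG were searched on both strands of the RefSeq promoter windows of the markers (300 bases, from 250 before to 50 after the start; build GRCm38.p6). Of 27 markers with a window, 9 held the letters (33.3%), compared with 15.4% of the 27025 genes in the table. Among the 14 called markers 12 had a window and 4 held the letters (33.3%). This was the same share as over all 27, so the letters did not set the called markers apart. The stretch of 30 bases around the match is shown for these 4 in the direction of the gene, with GAGGAAG or its reverse complement in capitals. It lies on the plus strand at chr7:128062545-128062574 for Itgam, chr4:130913266-130913295 for Laptm5, chr5:90772415-90772444 for Pf4 and chr17:48346349-48346378 for Trem2.
Itgam: gttttctcccgGAGGAAGgctacagagggc
Laptm5: gcagcctgtggCTTCCTCttttttgttctg
Pf4: tctgcagagcaCTTCCTCatcctgtatcct
Trem2: agcctcctttcCTTCCTCcctccctcacgc
The match began 84, 39, 9 and 41 bases before the start of Itgam, Laptm5, Pf4 and Trem2. In Itgam it read in the direction of the gene and in the other 3 on the opposite strand. Itgam held a second match, on the opposite strand and 31 bases after the start, which is not shown. A match of letters is a description of the sequence and does not show that PU.1 binds there.

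Of the resident markers, 2 of 7 were called higher and all 7 had positive changes, with a median log2 fold change of 1.29. Cd163, the scavenger receptor for haemoglobin bound to haptoglobin, rose from 8.20, 6.29 and 7.21 CPM in WT to 27.3, 12.1 and 15.9 CPM in HSALR (chromosome 6, 124281606 to 124307560; log2 fold change 1.34 ± 0.29, edgeR adjusted p = 0.0249). The chemokine gene Pf4, which is made by resident macrophages and also by platelets, rose from 3.25, 4.70 and 4.46 CPM in WT to 24.0, 8.39 and 14.4 CPM in HSALR (log2 fold change 1.90 ± 0.37, edgeR adjusted p = 0.0204). For both genes every HSALR library lay above every WT library. Mrc1, the mannose receptor gene, was the most abundant resident marker in CPM, with 34.8, 32.7 and 26.8 CPM in WT and 115, 48.8 and 49.4 CPM in HSALR (log2 fold change 1.18 ± 0.34, edgeR adjusted p = 0.0666). Its groups did not overlap, HSALR replicates 2 and 3 were nearly equal, and it was called by DESeq2, without HSALR replicate 1 and without HSALR replicate 2.

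The other 4 resident markers were not called. Lyve1, a hyaluronan receptor of perivascular macrophages and of lymphatic vessels, changed by 1.24 ± 0.39 on the log2 scale (edgeR adjusted p = 0.0777). The value was 1.54 ± 0.54 for the folate receptor gene Folr2 (edgeR adjusted p = 0.105), 1.29 ± 0.48 for the lectin gene Clec10a (edgeR adjusted p = 0.113) and 1.09 ± 0.57 for Timd4, which encodes a receptor for the phosphatidylserine of dying cells (edgeR adjusted p = 0.221). Folr2 measured 4.60, 5.50 and 3.49 CPM in WT and 25.3, 5.97 and 8.73 CPM in HSALR, where HSALR replicate 2 was just above the highest WT library and HSALR replicate 1 far above it. The groups overlapped for Timd4 and not for the other 3. Summed over the 7 genes, resident marker RNA was 65.6, 69.5 and 58.2 CPM in WT and 263, 100.4 and 115 CPM in HSALR.

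Of the 7 inflammatory and injury-associated markers, 6 were tested, 3 were called higher and all 6 had positive changes, with a median log2 fold change of 1.78. Trem2 and Spp1 among these 6 passed the filter only with the help of HSALR, which favoured a positive change. The called genes other than Trem2 were Lgals3 and Ccr2. Trem2 encodes a lipid-sensing receptor of phagocytes that signals through DAP12. It was close to absent in WT, with 4, 2 and 0 counts in the WT libraries and 52, 14 and 23 in the HSALR libraries (chromosome 17, 48653429 to 48661175; log2 fold change 4.07 ± 0.88, edgeR adjusted p = 0.0237). All 3 HSALR libraries held at least 14 counts and no WT library more than 4. With so few counts in WT the size of the change is uncertain, and its log2 fold change was between 2.20 and 5.0 across the 18 alternatives.

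Lgals3, the gene of galectin-3, a lectin of activated macrophages that other cells make as well, rose from 1.91, 2.25 and 1.49 CPM in WT to 11.6, 3.39 and 7.72 CPM in HSALR (log2 fold change 1.99 ± 0.43, edgeR adjusted p = 0.0238). Ccr2, the receptor that brings monocytes into tissue, rose from 1.06, 1.46 and 1.49 CPM in WT to 7.52, 1.86 and 4.36 CPM in HSALR (log2 fold change 1.76 ± 0.48, edgeR adjusted p = 0.0473). In both, HSALR replicate 2 was the nearest to WT, and the groups did not overlap. Ccr2 kept its call in 7 of 18 alternatives, the fewest of the called markers.

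Gpnmb, a glycoprotein of lipid-laden macrophages, measured 2.62, 3.11 and 1.56 CPM in WT and 13.3, 3.07 and 8.53 CPM in HSALR and was not called (log2 fold change 1.76 ± 0.52, edgeR adjusted p = 0.0639). Its HSALR replicate 2 fell within the WT range. Cd14, the co-receptor for bacterial lipopolysaccharide, changed by 1.33 ± 0.44 on the log2 scale (edgeR adjusted p = 0.075) with groups that did not overlap. Spp1, which encodes osteopontin, was scarce, with 6, 2 and 2 counts in the WT libraries and 12, 9 and 10 in the HSALR libraries (log2 fold change 1.79 ± 0.63, edgeR adjusted p = 0.0914). Fcgr1, the high-affinity Fc receptor gene, was too scarce to be tested, with 1, 1 and 5 counts in the WT libraries and 9, 6 and 11 in the HSALR libraries. The summed RNA of these 7 markers was 7.50, 9.41 and 6.84 CPM in WT and 46.4, 13.2 and 27.2 CPM in HSALR. As a share of the 10 general markers it was 8.14%, 8.62% and 6.60% in WT and 10.3%, 9.10% and 12.6% in HSALR, while the resident markers stood at 71.2%, 63.7% and 56.2% in WT and 58.5%, 69.5% and 53.4% in HSALR. The inflammatory share was higher in each HSALR library than in each WT library, by little for replicate 2, and the resident share overlapped between the groups. For HSALR replicate 2 that separation rested on Trem2, which passed the filter only with the help of HSALR. Trem2 alone stood at 0.307%, 0.121% and 0% of the general markers in WT and at 1.10%, 0.782% and 0.718% in HSALR. Without it HSALR replicate 2 would lie below WT replicate 2. No test was made of these shares.

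Of the 10 general macrophage and monocyte markers 9 were tested, and 6 were called higher. Cd68, a protein of the phagocyte's endosomes, rose from 2.90, 3.38 and 2.68 CPM in WT to 14.4, 6.45 and 8.06 CPM in HSALR (chromosome 11, 69555037 to 69557067; log2 fold change 1.68 ± 0.31, edgeR adjusted p = 0.0148). Csf1r, the receptor for the survival factor CSF1, was the second most abundant marker in transcript abundance in WT and rose from 28.1, 33.1 and 29.7 CPM in WT to 109, 42.7 and 59.8 CPM in HSALR (log2 fold change 1.22 ± 0.32, edgeR adjusted p = 0.048). Its adjusted p lay just below the threshold. Adgre1, the gene of the macrophage marker F4/80, rose from 4.10, 4.90 and 5.20 CPM in WT to 18.1, 7.99 and 9.33 CPM in HSALR (log2 fold change 1.31 ± 0.31, edgeR adjusted p = 0.0318).

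Mpeg1, a pore-forming protein of phagosomes, rose from 5.16, 5.89 and 6.91 CPM in WT to 24.5, 9.52 and 16.4 CPM in HSALR (log2 fold change 1.48 ± 0.32, edgeR adjusted p = 0.0267). Cybb, the catalytic subunit of the phagocyte NADPH oxidase, rose from 2.90, 3.71 and 2.97 CPM in WT to 12.4, 6.05 and 7.32 CPM in HSALR (log2 fold change 1.41 ± 0.30, edgeR adjusted p = 0.0211). For these 5 genes HSALR replicate 2 lay above all WT libraries and below the other HSALR libraries. Itgam, the integrin chain CD11b, rose from 2.76, 2.85 and 2.01 CPM in WT to 18.4, 6.53 and 6.31 CPM in HSALR (log2 fold change 2.02 ± 0.45, edgeR adjusted p = 0.0306). Of its stretches of 50 bases, 63.5% also occur in transcripts of Gm49368, which was given 10.01, 10.58 and 0 counts in the WT libraries and 24.61, 0 and 0 in the HSALR libraries, so the division of reads between them is uncertain.

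Lyz2, the lysozyme gene of macrophages, had the highest transcript abundance of the list in WT, at 26.1 ± 2.94 TPM (TPM, which corrects for transcript length; SD, n = 3), followed by Csf1r at 6.78 ± 1.55, Pf4 at 6.02 ± 1.33 and Tyrobp at 4.76 ± 1.78 TPM. The last 3 did not differ beyond their spread. Lyz2 measured 44.7, 53.1 and 52.3 CPM in WT and 243, 62.9 and 104 CPM in HSALR and was not called (log2 fold change 1.45 ± 0.47, edgeR adjusted p = 0.0914). The groups did not overlap, HSALR replicate 1 was far above the other HSALR libraries, and Lyz2 was called without HSALR replicate 1 and without HSALR replicate 2. Msr1, a scavenger receptor (log2 fold change 1.22 ± 0.48, edgeR adjusted p = 0.12), and Aif1, the calcium-binding protein IBA1 (log2 fold change 1.10 ± 0.58, edgeR adjusted p = 0.227), were not called, and HSALR replicate 2 fell within the WT range for Msr1. Aif1 reached the cutoff of the filter only with the help of HSALR. Cx3cr1, the fractalkine receptor, was not tested, with 3, 4 and 2 counts in the WT libraries and 25, 5 and 7 in the HSALR libraries.

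**Figure D2:**
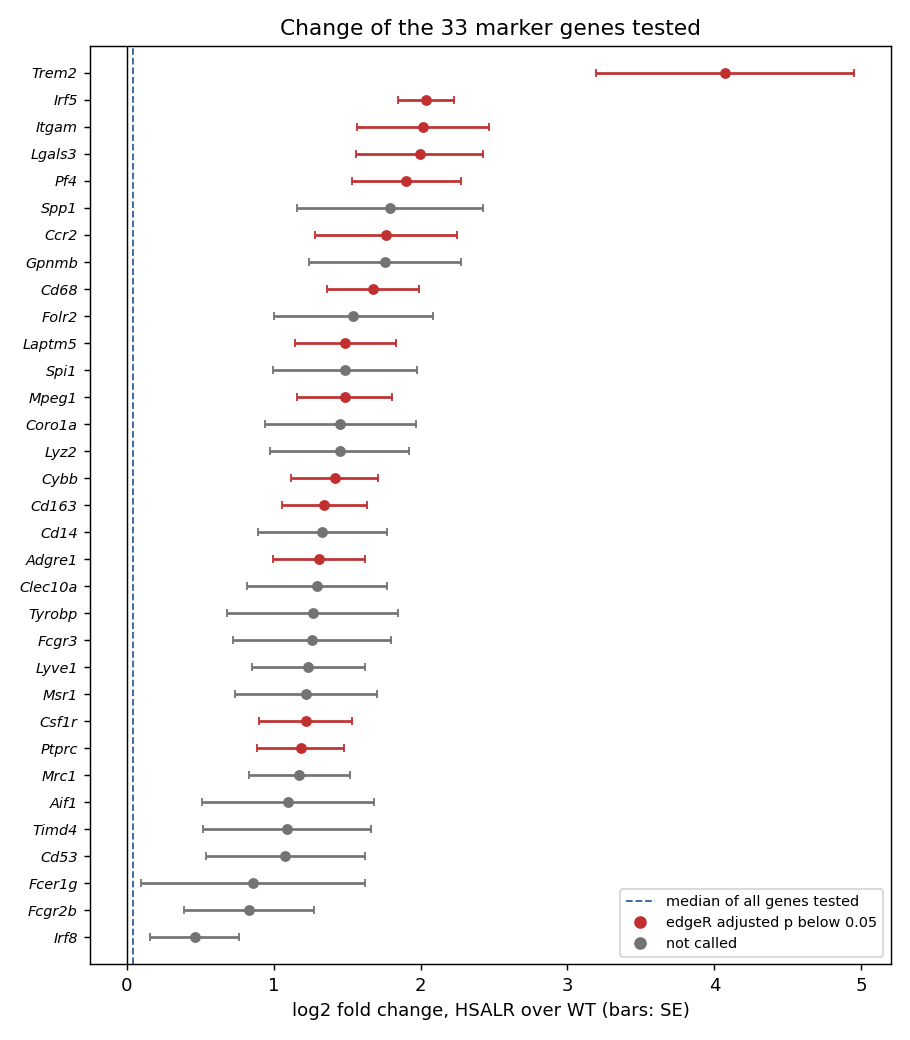
Log2 fold change (HSALR over WT, horizontal axis) of the 33 tested marker genes, with bars for the SE from the edgeR fit on 3 WT and 3 HSALR libraries. Red points were called at an adjusted p below 0.05 and grey points were not, and the dashed line is the median of all genes tested (0.04). Trem2 at 4.07 has the largest change and the widest bar, Irf5 at 2.04 the narrowest, and Irf8 at 0.46 the smallest change.

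None of the 4 Fc receptor and adaptor genes was called by edgeR or limma-voom. At an unadjusted p below 0.05 Fcgr3 alone passed, and DESeq2 called it. Tyrobp, the DAP12 adaptor through which TREM2 signals, measured 1.98, 3.18 and 4.83 CPM in WT and 15.5, 3.79 and 4.97 CPM in HSALR (log2 fold change 1.27 ± 0.58, edgeR adjusted p = 0.184). Fcer1g, the gamma chain shared by activating Fc receptors, measured 0.849, 0.927 and 1.49 CPM in WT and 4.57, 1.05 and 0.470 CPM in HSALR (log2 fold change 0.86 ± 0.76, edgeR adjusted p = 0.465). For both adaptors the groups overlapped, HSALR replicate 1 was the only library well above WT, and Fcer1g was lower in HSALR replicate 3 than in every WT library. Without HSALR replicate 1 the change of Fcer1g turned to -0.52.

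The activating receptor gene Fcgr3 changed by 1.26 ± 0.54 on the log2 scale (edgeR adjusted p = 0.155), and Fcgr2b, the inhibitory receptor of the family, by 0.83 ± 0.44 (edgeR adjusted p = 0.231). Neither had a whole expected count in any library, since their transcripts share sequence and reads were divided between them. Their sum avoids that division and was 7.21, 8.54 and 9.52 CPM in WT and 31.8, 7.66 and 13.2 CPM in HSALR. The sum in HSALR replicate 2 was within the WT range. Divided reads also touched Clec10a, which shares 8.49% of its stretches of 50 bases with Mgl2, and Lyz2, which shares 5.63% with Lyz1.

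Of the 4 genes of all leukocytes, 2 were called higher. Ptprc, the phosphatase CD45 on every leukocyte, rose from 3.32, 4.31 and 3.49 CPM in WT to 12.0, 5.49 and 7.99 CPM in HSALR (log2 fold change 1.19 ± 0.30, edgeR adjusted p = 0.0368). Laptm5, a lysosomal protein of blood cells, rose from 3.82, 3.25 and 4.02 CPM in WT to 16.5, 6.29 and 8.53 CPM in HSALR (log2 fold change 1.49 ± 0.34, edgeR adjusted p = 0.0296). In both, the groups did not overlap. Coro1a, an actin-binding protein of leukocytes (log2 fold change 1.45 ± 0.52, edgeR adjusted p = 0.0998), and the tetraspanin gene Cd53 (log2 fold change 1.08 ± 0.54, edgeR adjusted p = 0.204) were not called, and Cd53 in HSALR replicates 2 and 3 was at 1.86 and 1.68 CPM against 1.49 to 1.77 CPM in WT.

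Genes that work with these markers were examined in 6 lists of 80 genes, of which 53 were tested. Of these 3 were called higher, a share close to the 4.28% of all genes tested. None was called lower, where 7.48% of all genes tested were. The numbers called higher were 19 by DESeq2 (8.57% of all genes) and 0 by limma-voom (3.35%) and limma-trend (0.368%). At an unadjusted edgeR p below 0.05, 27 were higher (15.8% of all genes) and 1 (Lpl, a lipase) lower (16% of all genes). Of the 53 genes 9 reached the cutoff of the filter only with the help of HSALR. Among the other 44, the number higher at an unadjusted p below 0.05 was 23. The called genes were Ctss, a lysosomal protease of antigen-presenting cells (log2 fold change 1.65 ± 0.43, edgeR adjusted p = 0.0475), Retnla, a secreted protein of alternatively activated macrophages (log2 fold change 1.97 ± 0.47, edgeR adjusted p = 0.0446), and Cd209d, a lectin of the DC-SIGN family (log2 fold change 1.67 ± 0.42, edgeR adjusted p = 0.037). Retnla measured 12.9, 16.9 and 16.1 CPM in WT and 105, 28.8 and 46.4 CPM in HSALR. Its 3 HSALR libraries lay above WT in the same order as most macrophage markers. None of the 3 was called without WT replicate 1, 2 or 3 or without HSALR replicate 3 (edgeR adjusted p between 0.0695 and 0.171), and all 3 were called without HSALR replicate 1 or 2.

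Ligands and signalling partners gave no call by edgeR, where 4.28% of all genes tested were called higher. DESeq2 called 8.57% of all genes higher, and 15.8% were higher at an unadjusted edgeR p below 0.05. Of 9 tested CSF1 family and chemokine ligands none was called by edgeR and 3 by DESeq2, with 5 at an unadjusted p below 0.05. Ccl9 (log2 fold change 1.75 ± 0.49, edgeR adjusted p = 0.0582) and Csf1 itself (log2 fold change 0.81 ± 0.30, edgeR adjusted p = 0.115) had the lowest p-values. Of 12 tested genes of ITAM signalling none was called by edgeR and 4 by DESeq2, with 5 at an unadjusted p below 0.05. Ptpn6, the phosphatase SHP-1 that restrains this pathway (log2 fold change 1.26 ± 0.36, edgeR adjusted p = 0.0522), and Vav1, an exchange factor downstream of it (log2 fold change 1.75 ± 0.58, edgeR adjusted p = 0.0753), came closest. Vav1 and 3 others of the 12 reached the cutoff only with the help of HSALR. All 5 oxidase partners of Cybb had positive changes and an unadjusted p below 0.05, none was called by edgeR and 3 were by DESeq2. Ncf4 (log2 fold change 1.85 ± 0.57, edgeR adjusted p = 0.0641) and Cyba (log2 fold change 1.21 ± 0.40, edgeR adjusted p = 0.0844) had the lowest p-values, and Ncf4 reached the cutoff only with the help of HSALR.

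Of 11 tested genes that accompany Trem2 in phagocytes, Ctss alone was called by edgeR, and 5 were called higher by DESeq2 (8.57% of all genes tested). At an unadjusted edgeR p below 0.05, 5 were higher (15.8% of all genes) and 1 lower (16% of all genes). The median log2 fold change of these 11 genes was 0.34. The list of cytokines and repair mediators held both scarce and readily counted genes. Il10 had 0 counts in all 6 libraries, and Il1b, Il6, Arg1, Chil3 and Tnf had at most 4 counts in any library, at a depth where 3 counts are at most 0.285 CPM. Igf1, a growth factor of muscle repair, had between 151 and 291 counts in each library, and Tgfb1, a fibrogenic cytokine, between 28 and 66. Of the 6 tested genes of that list Retnla alone was called, by edgeR and by DESeq2.

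Defining genes of T cells, B cells, NK cells and neutrophils were scarce. Cd3d, Cd3e and Cd3g of T cells had at most 3 counts in any library, the 8 B cell and plasma cell genes at most 8 counts, and the 7 NK cell genes at most 5. Of 11 neutrophil genes 6, among them Ly6g, Mpo and Elane, had 0 counts in all libraries. The only tested T cell gene, Cd28, was not called (log2 fold change 0.92 ± 0.52, edgeR adjusted p = 0.253; between 19 and 86 counts a library), nor was the neutrophil gene Cxcr2, which reached the cutoff only with the help of HSALR (log2 fold change 0.32 ± 0.55, edgeR adjusted p = 0.721). Of the dendritic cell genes, Cd209a (log2 fold change 0.36 ± 0.45, edgeR adjusted p = 0.608) and Zbtb46 (log2 fold change -0.12 ± 0.22, edgeR adjusted p = 0.738) were tested and not called. The other 6 dendritic cell genes were too scarce to be tested.

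Markers of connective tissue and of other cells moved with the macrophage markers across the HSALR libraries. Their median distance to the mean of the WT libraries stood at 1.73, 0.26 and 0.65 in HSALR replicates 1, 2 and 3 for 8 fibroblast and fibroadipogenic progenitor genes, 1.92, 0.09 and 0.61 for 6 lymphatic endothelial genes, 1.46, 0.07 and 0.24 for 6 mast cell genes and 1.98, -0.31 and 0.80 for 5 red cell genes, on log2(CPM + 0.5). In each of these lists HSALR replicate 1 was the highest library, as it was for the macrophage markers. In HSALR replicate 2 these medians were between -0.31 and 0.26, and that of the 33 macrophage markers was 0.49, with -0.05 for their Fc receptors and adaptors. In the same library it was 0.47 for 3 satellite cell genes and 0.85 for 6 adipocyte genes. A higher median in HSALR replicate 2 was thus not particular to the macrophage markers. Of these genes Col3a1 was called in the fibroblast list (log2 fold change 1.35 ± 0.35, edgeR adjusted p = 0.0456) and Pdpn in the lymphatic list (log2 fold change 1.25 ± 0.35, edgeR adjusted p = 0.0495). Over all genes tested edgeR called 4.28% higher. DESeq2 called 5 of the 8 fibroblast genes and 4 of the 6 lymphatic genes higher (8.57% of all genes). At an unadjusted edgeR p below 0.05, 5 and 3 were higher (15.8% of all genes), and limma-voom called none (3.35% of all genes were called higher). Neither Col3a1 nor Pdpn was called without WT replicate 1, 2 or 3 or without HSALR replicate 3, and Pdpn was not without HSALR replicate 1 (edgeR adjusted p = 0.0797). Blood endothelial genes were nearer to WT, at 0.39, -0.13 and -0.02. In all 7 of them HSALR replicate 1 was still the highest and HSALR replicate 2 the lowest HSALR library. Skeletal muscle fibre genes were lower, at -0.81, -0.15 and -0.31.

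Summed over each list, the fibroblast genes amounted to 1463, 1455 and 1355 CPM in WT and 5203, 1687 and 2318 CPM in HSALR, the lymphatic genes to 35.9, 44.4 and 32.5 CPM in WT and 167, 42.1 and 64.1 CPM in HSALR and the red cell genes to 355, 516 and 601 CPM in WT and 2046, 389.7 and 924 CPM in HSALR. The 8 fibre genes, among them Ckm and Acta1, amounted to 275540.0, 239658 and 254272 CPM in WT and 93369, 194363 and 151485 CPM in HSALR, lower in each HSALR library than in each WT library and lowest in HSALR replicate 1. None of the mast cell, red cell, blood endothelial and fibre genes was called by edgeR, and at an unadjusted p below 0.05 there were 2 among the fibre genes, Ttn (log2 fold change -1.29 ± 0.37, edgeR adjusted p = 0.0537) and Myh4 (log2 fold change -0.83 ± 0.33, edgeR adjusted p = 0.122), and 0 among the others. At that unadjusted edgeR threshold 16% of all genes tested were lower. DESeq2 called 2 fibre genes lower and limma-voom 1. The lowest p-values of the mast cell list belonged to Cpa3 (log2 fold change 1.25 ± 0.60, edgeR adjusted p = 0.19) and Kit (log2 fold change 0.73 ± 0.37, edgeR adjusted p = 0.208), of the red cell list to Hba-a1 (log2 fold change 1.16 ± 0.54, edgeR adjusted p = 0.191) and Hbb-bs (log2 fold change 1.22 ± 0.59, edgeR adjusted p = 0.214), and of the blood endothelial list to Vwf (log2 fold change 0.25 ± 0.14, edgeR adjusted p = 0.243) and Emcn (log2 fold change 0.30 ± 0.25, edgeR adjusted p = 0.439). The part of these cell types, and of the 7SL and 7SK share, in the change of the macrophage markers was not tested. After adjustment for the 7SL and 7SK share of each library, 3 markers were called higher (Pf4, Cd68 and Irf5), where 2.67% of all genes tested were called higher. The median log2 fold change of the 33 genes was then 0.42, with 26 of them positive, against 0.005 over all genes.

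**Figure D3:**
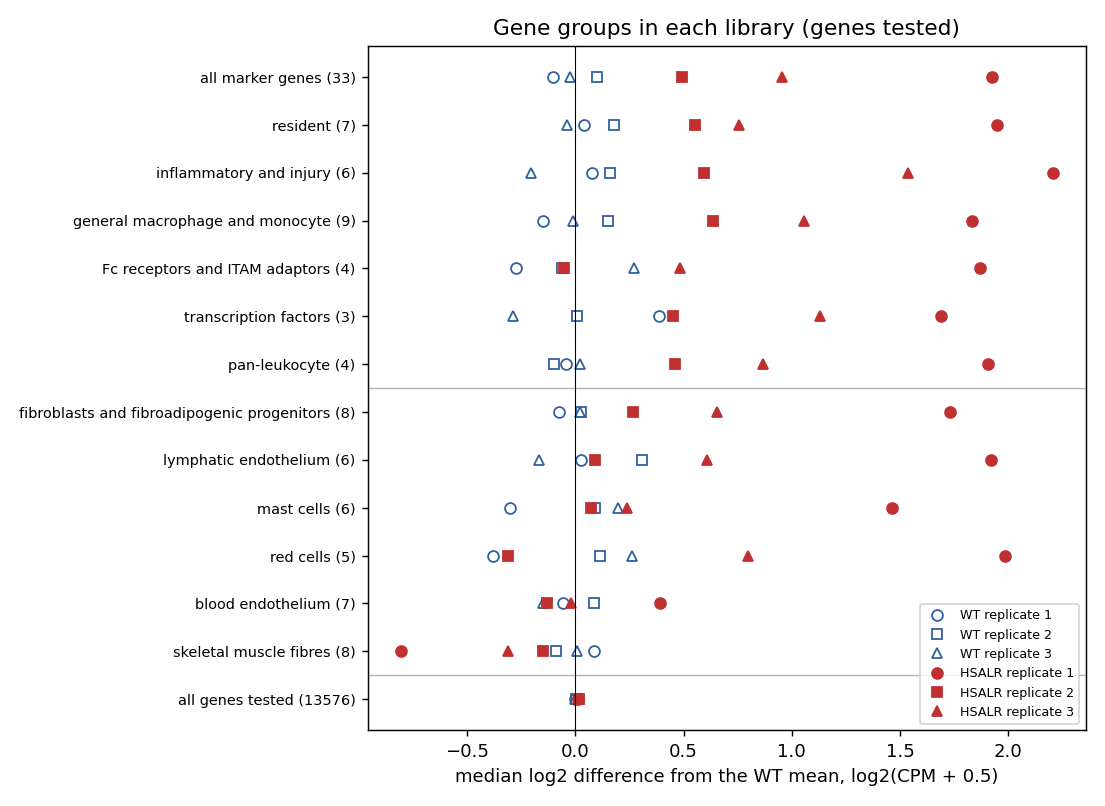
Median log2 difference from the WT mean, on log2(CPM + 0.5), of each gene group (vertical axis, number of tested genes in brackets) in each library. Open blue symbols are WT and filled red symbols HSALR libraries. HSALR replicate 1 lies at 1.92 for all marker genes and at 1.73 for the fibroblast genes, while the median of all genes tested lies within 0.02 of 0 in every library.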

How the data were processed

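Total RNA of quadriceps was extracted with TRIzol and made into stranded libraries after depletion of ribosomal RNA (3 WT and 3 HSALR samples), per the labels. Groups and replicate numbers came from the sample titles. The authors deposited per sample the expected counts, which are RSEM's estimates of reads per gene with shared reads divided among genes. They also deposited TPM, which corrects those counts for effective length, and the lengths behind it, whereas FPKM was not used. Bowtie2, RSEM 1.3.1 and the build GRCm39 are named in the processing notes of the submitters, without the release of the annotation. A rise in a few abundant RNAs lowers the TPM of all others.

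Symbols and coordinates came from GENCODE M39 (53400 of 53947 genes matched). Expected counts were rounded, filtered with filterByExpr (13576 genes kept), normalised by TMM and tested with edgeR 4.0.16 (robust quasi-likelihood F test, R 4.3.3) with group as the only term, since the study's methods describe its small RNA libraries. Each SE was taken as |log2 fold change| over the square root of F. Means are ± SD over 3 libraries, and limits from counts cover counting error only. The procedure was tested on simulated counts, where fold changes were recovered close to their true size. The share of false calls was somewhat above the nominal level, so calls near the threshold are less certain than their adjusted p states. The simulated libraries included none that stood apart as HSALR replicate 1 did. Shared sequence was measured as stretches of 50 bases in GENCODE transcripts. Alternatives were DESeq2 1.42.0, limma 3.58.1 (voom, and trend on log2(TPM + 0.1)), other size factors and filters, offsets for length (effective length, or a loess trend with span 0.5), protein coding genes only, the 7SL and 7SK share, a replicate block and each library left out. The 35 genes and all lists were chosen with earlier results of these data known. Every marker is reported, and of each other list up to 4 called genes, or 2 where none was called, by lowest p. A further gene that this rule names is not reported here.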

Additional observations from a re-analysis of the deposited data

How the results depend on the processing

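No marker was called lower and the median log2 fold change stayed positive in all 18 alternatives, between 0.42 (adjusted for the 7SL and 7SK share) and 1.62 (without HSALR replicate 2). The number of markers called higher was 14, and it was 23 with DESeq2, 8 with limma-voom, 3 with limma-trend on TPM, 3 after adjustment for the 7SL and 7SK share, and between 1 and 24 with a library left out. It stayed between 10 and 15 with the other 8. On TPM the median over all genes shifted to -0.46, and the markers' median of 0.62 lay 1.08 above it. Genes called higher over the whole table numbered 581, against 1164 with DESeq2, 455 with limma-voom, 50 with limma-trend on TPM and 362 after adjustment for the 7SL and 7SK share. In both directions together 1597 were called, against 2428 with DESeq2, 519 with limma-trend on TPM, 705 with the effective length offset, 941 with the length trend removed, 935 after adjustment for the 7SL and 7SK share, and 166 to 3294 with a library left out. After adjustment for the 7SL and 7SK share the log2 fold changes of Timd4 (-0.26), Aif1 (-0.11), Fcgr2b (-0.32), Fcgr3 (-0.18), Fcer1g (-1.12), Tyrobp (-0.18) and Cd53 (-0.37) turned negative, and that of Fcer1g also with limma-trend on TPM (-0.17) and without HSALR replicate 1, its values with a library left out lying between -0.52 and 1.35. The cause was not tested.

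The replicate numbers did not pair the samples, since deviations of same-numbered libraries correlated at 0.0005, -0.09 and 0.23. With a replicate block 11 markers and 799 of all genes were called, 10 of the 11 among the 14. Depth limited Fcgr1, Cx3cr1, Spp1 and Trem2, each with at most 6 counts in any WT library.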

Other observations

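Satellite cells, Schwann cells and adipocytes also share the muscle with macrophages, and none of their tested genes was called by edgeR, DESeq2, limma-voom or limma-trend. At an unadjusted edgeR p below 0.05 there were 2 satellite cell genes, both higher, and 0 of the other lists (15.8% of all genes tested were higher). Pax7, the factor that marks satellite cells, measured 1.20, 0.994 and 0.744 CPM in WT and 2.95, 1.53 and 2.22 CPM in HSALR (log2 fold change 1.17 ± 0.41, edgeR adjusted p = 0.0881), and Vcam1, an adhesion molecule of satellite cells and vessels, 2.26, 3.25 and 2.16 CPM in WT and 4.47, 4.20 and 4.30 CPM in HSALR (log2 fold change 0.75 ± 0.27, edgeR adjusted p = 0.0942). In both the 3 HSALR values lay above the 3 WT values, and Pax7 reached the cutoff of the filter only with the help of HSALR. Of the Schwann cell genes S100b had the lowest p (log2 fold change 1.36 ± 0.72, edgeR adjusted p = 0.231). Adipocyte genes varied widely within each group, with a summed level of 6.72, 85.6 and 252 CPM in WT and 26.3, 105 and 821 CPM in HSALR, and Retn, which also reached the cutoff only with that help (log2 fold change 1.51 ± 1.43, edgeR adjusted p = 0.514) and Cfd (log2 fold change 1.65 ± 1.75, edgeR adjusted p = 0.566) had the lowest p-values among them. HSALR replicate 1, the highest HSALR library for 32 of the 33 tested macrophage markers, was the lowest HSALR library for the adipocyte sum.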
